A study of Mus musculus with 9 samples.

Results

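The mu class of glutathione transferases comprises Gstm1 to Gstm7 in the mouse, and these 7 genes were taken by their symbols from the 35275 entries of a liver RNA-seq table. They were selected on counts of these same libraries, with earlier results known, so that their own differences are given as values with intervals and no p-value, and their place beside the threshold used for all genes is a description. Bulk RNA of whole liver was sequenced from C57BL/6 mice in 3 groups of 3 libraries. One group had been given AdipoRonPEG5, a derivative of AdipoRon that carries polyethylene glycol (PEG) as its name says, the next AdipoRon itself, a synthetic compound that activates adiponectin receptors, and the last PBS as vehicle. All 3 groups were injected 2 times a day for 5 days. The labels write 5 mg/kg for PBS as for both compounds, which leaves the true doses unsure. Neither the age nor the sex of the mice is given. No label ties each library to a mouse of its own, so the number of mice behind p-values and SDs is unknown.

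Glutathione transferases join the thiol of glutathione to reactive, electron-poor compounds. Conjugates are exported by ABC transporters and trimmed to mercapturates. Mu-class enzymes work as dimers in the cytosol, and hepatocytes hold much of them. In rodent liver the genes are known to be induced through the transcription factor NRF2 (Nfe2l2), which KEAP1 otherwise marks for breakdown, and through the xenobiotic receptors. Mu-class protein is also known to bind the stress kinase ASK1 (Map3k5).

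Because the genes are close copies, reads can be shared between them, and their coding starts show how close they are. The first 60 coding bases of each gene are given from the GENCODE M21 transcripts of GRCm38; for Gstm5, whose coding region starts 9 bases earlier, bases 10 to 69 stand in the same place. All 7 lie on chromosome 3, and capitals mark the bases that differ from Gstm1.
Gstm1: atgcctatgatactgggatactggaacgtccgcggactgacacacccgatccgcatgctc
Gstm2: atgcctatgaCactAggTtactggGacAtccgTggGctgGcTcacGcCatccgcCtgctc
Gstm3: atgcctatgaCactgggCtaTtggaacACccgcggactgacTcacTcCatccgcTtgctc
Gstm4: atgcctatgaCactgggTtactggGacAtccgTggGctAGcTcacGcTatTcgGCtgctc
Gstm5: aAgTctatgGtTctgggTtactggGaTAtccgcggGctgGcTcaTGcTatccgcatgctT
Gstm6: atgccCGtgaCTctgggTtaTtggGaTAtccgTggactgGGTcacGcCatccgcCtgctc
Gstm7: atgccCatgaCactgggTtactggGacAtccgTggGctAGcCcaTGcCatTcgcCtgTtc
Gstm3 differed from Gstm1 at 9 of these bases, Gstm2 at 12, Gstm4 at 14, Gstm5 at 15, and Gstm6 and Gstm7 at 16 each. Over the whole coding region Gstm1 and Gstm3 were the closest pair, with 89.5% identity. Gstm5 stood farthest off, at 67.9% to 70.5% identity to the other 6. Each coding region spans 8 exons and gives 218 amino acids, except that of Gstm5, which gives 224.

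Despite this likeness, most of each transcript was its own. Windows of 50 bases found in no transcript of another gene made up 100% of Gstm4 and Gstm7, 90.6% of Gstm2, 88.2% of Gstm6, 85.6% of Gstm5, 76.9% of Gstm1 and 71.2% of Gstm3. At 100 bases the share was 92.3% for Gstm1 and 86.2% for Gstm3. Gstm1 and Gstm3 share windows with each other and with the processed copies Gstm2-ps1 and Gm8834. Gstm6 shares 76 windows of 50 bases and 26 of 100 bases with Gstm3, whereas at 150 bases 100% of Gstm6 windows were its own. The read length and the handling of reads with several matches are not given in the sources used here, so that small differences between the 7 genes are uncertain. Gstm5 also overlaps the long noncoding RNA 4933431E20Rik, which had 8 to 32 counts in each library. Gstm4 overlaps a long noncoding RNA and a small nucleolar RNA, and the strand setting of the counting is not given.

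Upstream sequence is shown for Gstm3 and Gstm1, the members with the largest differences, and for Gstm5, whose level was alike in all groups. The 250 bases before a RefSeq start (GRCm38.p6) run 5′ to 3′ on the gene's own strand. Gstm1 has 2 such starts, and the outer one is used here. Capitals mark matches on either strand to TGANNNNGC, the wide form of the antioxidant response element that NRF2 binds, to its narrower form TGACNNNGC, or to GCGTG, the core of the element bound by the aryl hydrocarbon receptor.
Gstm3 (chr3:107969175-107969424, minus strand): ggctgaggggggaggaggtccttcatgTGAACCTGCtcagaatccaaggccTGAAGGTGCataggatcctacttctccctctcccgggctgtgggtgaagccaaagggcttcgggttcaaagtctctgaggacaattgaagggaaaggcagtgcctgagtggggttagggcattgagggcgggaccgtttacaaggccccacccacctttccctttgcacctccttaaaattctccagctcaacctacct
Gstm1 (chr3:108017974-108018223, minus strand): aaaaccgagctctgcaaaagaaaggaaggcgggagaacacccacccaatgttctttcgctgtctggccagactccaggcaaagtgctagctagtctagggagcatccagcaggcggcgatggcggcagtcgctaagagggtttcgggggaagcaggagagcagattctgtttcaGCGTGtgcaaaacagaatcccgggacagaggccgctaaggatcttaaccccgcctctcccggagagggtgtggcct
Gstm5 (chr3:107895604-107895853, plus strand): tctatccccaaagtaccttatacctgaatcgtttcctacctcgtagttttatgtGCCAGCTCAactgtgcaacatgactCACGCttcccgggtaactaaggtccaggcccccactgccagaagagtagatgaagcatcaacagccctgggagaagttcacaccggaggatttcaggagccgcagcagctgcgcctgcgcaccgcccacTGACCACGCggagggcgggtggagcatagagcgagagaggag
TGANNNNGC was found at bases -223 and -199 of Gstm3, counted back from its start. The Gstm1 sequence held GCGTG at -76 and neither other motif. The window at its other start, which is not shown, held the same GCGTG at -231 and neither other motif. Gstm5, in contrast, held the narrow TGACNNNGC at -42, which is also a match to the wide form and overlaps a GCGTG match on the opposite strand at -38. It held a further wide match at -196 and a further GCGTG at -171, both on the opposite strand. In windows of 300 bases that add 50 bases past the start, TGANNNNGC stood in 41.3% of 32851 mouse windows, GCGTG in 32.4% and TGACNNNGC in 12.4%. None of the 3 motifs stood in the windows of Gstm2 and Gstm6, Gstm4 held the wide form, and 1 window of Gstm7 held the narrow form at -129. A match describes the letters of the window only.

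Depth was ample for all 7 genes. Library totals were 13942322 to 18508950 counts, with 39473195 in vehicle 1, and the fewest counts of any member were 57, for Gstm5 in vehicle 2. All 7 passed the filter on low counts, which kept 13151 entries. Levels are given as the authors' FPKM, the count per gene length and library total. Comparisons between genes depend on the length used, which is that of the longest transcript. It is 1064 bases for Gstm2 and 1179 bases for Gstm6, whose annotated exons together cover 1679 and 1989 bases. For Gstm3 and Gstm4 both lengths are the same. Differences are log2 values fitted by edgeR to counts scaled for library composition, with standard errors. Vehicle 3 and AdipoRonPEG5 1 stood apart in the acute phase gene Saa1. Saa1, which encodes a liver acute phase protein, was at 1952 CPM (the count scaled to a common library size) in AdipoRonPEG5 1 and 4959 CPM in vehicle 3, against 45.1 to 497 CPM in the other 7 libraries. Orm2, another acute phase gene, was at 118, 72.4 and 59.5 CPM in AdipoRonPEG5 libraries, 8.33 to 19.2 CPM in AdipoRon libraries, 5.6 and 5.68 CPM in vehicle 1 and 2, and 101.7 CPM in vehicle 3. For Orm2 vehicle 3 alone stood apart from its group.

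**Figure D1:**
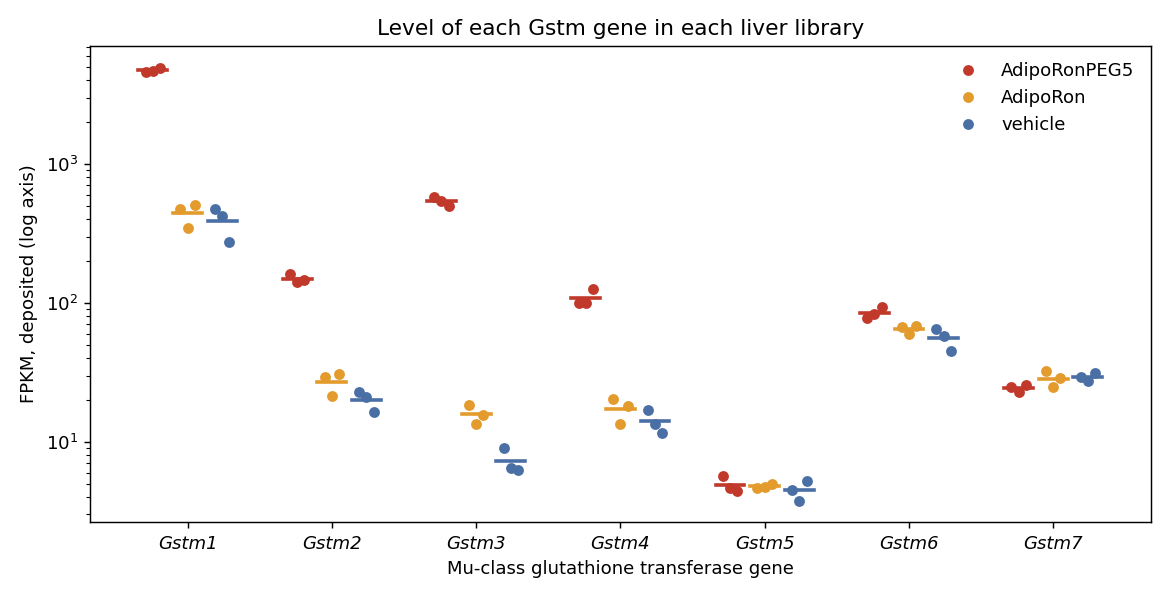
Level of each mu-class gene in each library, as deposited FPKM on a log axis; points are single libraries and bars the means of 3. For Gstm1, Gstm2, Gstm3 and Gstm4 the AdipoRonPEG5 points lie far above the AdipoRon and vehicle points, with Gstm3 at 497 to 579 FPKM against 6.26 to 8.97 FPKM in vehicle, while Gstm5 points of all 3 groups lie together.

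Gstm1 encodes the main mu-class enzyme of mouse liver and was the highest member in every library. Its level was 4588, 4648 and 4939 FPKM in AdipoRonPEG5 livers, 476, 343 and 505 FPKM in AdipoRon livers, and 474, 423 and 273 FPKM in vehicle livers. The AdipoRonPEG5 libraries lay far above all others, and those of AdipoRon and vehicle overlapped. In AdipoRonPEG5 livers it ranked 17 to 18 among all entries by FPKM, against 130 to 199 in AdipoRon and 147 to 271 in vehicle livers. The log2 difference of AdipoRonPEG5 from vehicle was 3.52 ± 0.20 (SE; 95% confidence interval 3.07 to 3.97), or 11.5-fold. That of AdipoRon from vehicle was 0.08 ± 0.19 (interval -0.32 to 0.49), an interval that reaches from lower to higher levels.

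Gstm3, the closest relative of Gstm1 in coding sequence, had the largest difference of the 7. It stood at 579, 542 and 497 FPKM in AdipoRonPEG5 livers, at 18.4, 13.5 and 15.6 FPKM in AdipoRon livers, and at 8.97, 6.51 and 6.26 FPKM in vehicle livers. The 3 groups did not overlap, and AdipoRon lay in the middle. AdipoRonPEG5 differed from vehicle by 6.12 ± 0.16 on the log2 scale (5.76 to 6.48), or 69.4-fold. AdipoRon differed from vehicle by 1.01 ± 0.14 (0.69 to 1.32), or 2.01-fold. Gstm3 ranked 122 to 139 by FPKM with AdipoRonPEG5, 2739 to 3402 with AdipoRon and 4414 to 5295 with vehicle.

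The level of Gstm3 was not a fixed share of that of its close copy Gstm1. The ratio of Gstm1 to Gstm3 FPKM was 7.93 to 9.93 in AdipoRonPEG5 libraries, 25.5 to 32.5 in AdipoRon libraries and 43.6 to 65.0 in vehicle libraries. The 3 ranges did not overlap.

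Gstm2 and Gstm4 shared a middle position. Gstm2 was at 160, 140 and 147 FPKM in AdipoRonPEG5 livers, 29.2, 21.3 and 30.6 FPKM in AdipoRon livers and 22.7, 21.0 and 16.4 FPKM in vehicle livers. Gstm4 was at 99.1, 100.2 and 125.6 FPKM in AdipoRonPEG5 livers, 20.5, 13.5 and 18.1 FPKM in AdipoRon livers and 17.1, 13.4 and 11.6 FPKM in vehicle livers. In both genes the AdipoRonPEG5 libraries lay above all others, and the AdipoRon and vehicle libraries overlapped. The log2 difference of AdipoRonPEG5 from vehicle was 2.81 ± 0.14 for Gstm2 (2.5 to 3.13) and 2.86 ± 0.18 for Gstm4 (2.48 to 3.25), or 7.01-fold and 7.28-fold. Against vehicle, AdipoRon gave 0.33 ± 0.14 for Gstm2 (0.02 to 0.64) and 0.20 ± 0.17 for Gstm4 (-0.18 to 0.57).

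Gstm6 showed a smaller difference in the same direction. It was at 77.4, 82.6 and 94.0 FPKM in AdipoRonPEG5 livers, 67.3, 59.9 and 68.0 FPKM in AdipoRon livers and 64.8, 58.2 and 44.8 FPKM in vehicle livers. AdipoRonPEG5 libraries lay above both other groups, which overlapped. The difference of AdipoRonPEG5 from vehicle was 0.52 ± 0.12 on the log2 scale (0.25 to 0.78), or 1.43-fold, and that of AdipoRon 0.12 ± 0.12 (-0.15 to 0.38). Gstm6 shares sequence windows with Gstm3, and the part of shared reads in the difference of Gstm6 was not tested.

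Gstm7 was the one member with lower values in all AdipoRonPEG5 livers than in all vehicle livers. It was at 24.9, 23.0 and 25.5 FPKM in AdipoRonPEG5 livers, 32.1, 24.7 and 28.7 FPKM in AdipoRon livers and 29.5, 27.6 and 31.3 FPKM in vehicle livers. AdipoRonPEG5 libraries lay below those of vehicle, and AdipoRon overlapped with both. AdipoRonPEG5 differed from vehicle by -0.35 ± 0.11 on the log2 scale (-0.58 to -0.12), and AdipoRon by -0.15 ± 0.11 (-0.38 to 0.08).

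Gstm5, the mouse counterpart of human GSTM3, was the lowest member on average in all groups. It was at 5.67, 4.64 and 4.39 FPKM in AdipoRonPEG5 livers, 4.66, 4.72 and 4.96 FPKM in AdipoRon livers and 4.47, 3.77 and 5.22 FPKM in vehicle livers. All 3 groups overlapped. The log2 difference of AdipoRonPEG5 from vehicle was 0.04 ± 0.17 (-0.33 to 0.41) and that of AdipoRon -0.01 ± 0.17 (-0.38 to 0.36). Both intervals reach from lower to higher levels.

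**Figure D2:**
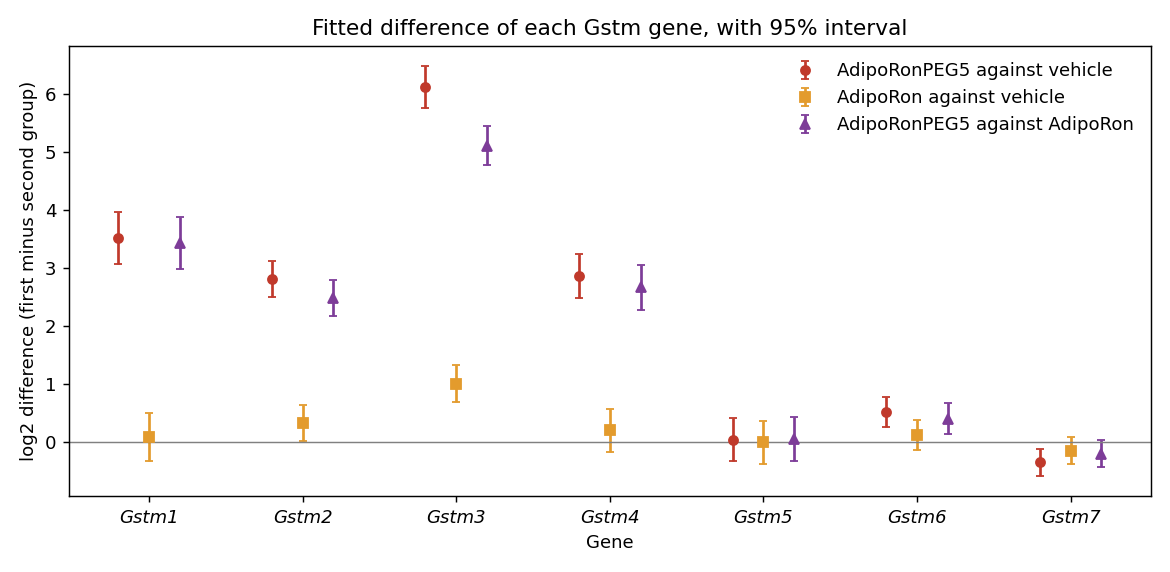
Log2 difference of each mu-class gene in the 3 comparisons, first group minus second, from the edgeR fit; points are estimates and bars 95% confidence intervals. AdipoRonPEG5 differed from vehicle by 6.12 for Gstm3 and by 2.81 to 3.52 for Gstm1, Gstm2 and Gstm4. For AdipoRon against vehicle the intervals of Gstm3 and, narrowly, Gstm2 (0.02 to 0.64) lie off 0. The AdipoRon and vehicle libraries of Gstm2 overlap, and the intervals describe members selected with these results known.

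The compounds were compared at the one dose and time that the labels give. AdipoRonPEG5 exceeded AdipoRon by 3.44 ± 0.20 for Gstm1 (10.8-fold), 2.48 ± 0.14 for Gstm2 (5.59-fold), 5.11 ± 0.16 for Gstm3 (34.6-fold) and 2.67 ± 0.17 for Gstm4 (6.34-fold) on the log2 scale. For Gstm6 the difference was 0.40 ± 0.12 (0.13 to 0.66), with no overlap between the groups. For Gstm7 it was -0.20 ± 0.11 (-0.43 to 0.03) and for Gstm5 0.05 ± 0.17 (-0.32 to 0.42), and the groups overlapped in both. The 3 comparisons share libraries in pairs, so that their values are not independent.

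Counted with the threshold used for all genes, a Benjamini-Hochberg adjusted p of 0.05, Gstm1, Gstm2, Gstm3, Gstm4 and Gstm6 were higher and Gstm7 lower with AdipoRonPEG5 against vehicle. Over all 13151 genes tested, 9.55% were higher and 7.63% lower, 17.2% in all. Against vehicle, AdipoRon passed for Gstm3 alone, where 3.8% of all genes were higher and 5.2% passed in either direction. AdipoRonPEG5 against AdipoRon passed for Gstm1 to Gstm4, where 2.68% of all genes were higher and 5.39% passed in either direction. Between the compounds 2.71% of all genes were lower. The members whose libraries did not overlap were Gstm1, Gstm2, Gstm3, Gstm4, Gstm6 and Gstm7 for AdipoRonPEG5 against vehicle (35.2% of all genes, 18.2% higher and 17.0% lower), Gstm3 for AdipoRon against vehicle (26.8%, 14.4% higher and 12.4% lower) and Gstm1, Gstm2, Gstm3, Gstm4 and Gstm6 between the compounds (28.2%, 13.9% higher and 14.3% lower). As the members were selected with these comparisons known, nothing is read from their counts. Gstm6 no longer passed without AdipoRonPEG5 3, where its log2 difference was 0.41. Gstm7 no longer passed under 9 of 19 alternatives, among them the omission of any one AdipoRonPEG5 or vehicle library. Scaling by total counts in place of edgeR's TMM turned the 1256 higher and 1004 lower genes of AdipoRonPEG5 against vehicle into 1700 higher and 584 lower. It turned the 500 higher and 184 lower genes of AdipoRon against vehicle into 883 higher and 64 lower.

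The median log2 difference of the 7 members was 2.81 for AdipoRonPEG5 against vehicle, 0.12 for AdipoRon against vehicle and 2.48 between the compounds. Over all genes tested the medians were 0.00, 0.01 and -0.01.

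The RNA of the whole class was dominated by Gstm1. Summed over the 7 genes, the level was 5636 ± 171 FPKM in AdipoRonPEG5 livers, 600 ± 104 FPKM in AdipoRon livers and 521 ± 120 FPKM in vehicle livers (SD, n = 3 each). Mu-class genes took 0.714% to 0.754% of all counts with AdipoRonPEG5, 0.0616% to 0.086% with AdipoRon and 0.0499% to 0.0798% with vehicle. The log2 ratio of the means was 3.43 for AdipoRonPEG5 against vehicle, 0.20 for AdipoRon against vehicle and 3.23 for AdipoRonPEG5 against AdipoRon. Without Gstm1, the other 6 genes summed to 911 ± 30.4 FPKM in AdipoRonPEG5 livers, 158.5 ± 18.5 FPKM in AdipoRon livers and 131 ± 16.0 FPKM in vehicle livers.

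The make-up of this sum changed along with its size. Gstm1 made up 82.9% to 84.7% of it in AdipoRonPEG5 libraries, 71.4% to 75.3% in AdipoRon libraries and 70.3% to 76.5% in vehicle libraries. The share of Gstm3 was 8.52% to 10.5% with AdipoRonPEG5, 2.32% to 2.84% with AdipoRon and 1.18% to 1.61% with vehicle. Gstm6 had 1.4% to 1.61% with AdipoRonPEG5, 10.1% to 12.5% with AdipoRon and 10.4% to 11.5% with vehicle. By mean FPKM Gstm3 was thus the next member after Gstm1 with AdipoRonPEG5, a place that Gstm6 held with AdipoRon and with vehicle. With AdipoRonPEG5 the order was Gstm1, Gstm3, Gstm2, Gstm4, Gstm6, Gstm7 and Gstm5, and no neighbours in it overlapped. In vehicle livers it was Gstm1, Gstm6, Gstm7, Gstm2, Gstm4, Gstm3 and Gstm5, where Gstm2 and Gstm4 overlapped. In AdipoRon livers the order was that of vehicle, and Gstm7 overlapped with Gstm2 and Gstm4 with Gstm3. The order of Gstm2 and Gstm4 turns on the lengths used. In CPM, which are not divided by length, Gstm4 stood above Gstm2 on average in all 3 groups. The means were 182.6 and 156.5 CPM with AdipoRonPEG5, 28.8 and 28.0 CPM with AdipoRon, and 24.9 and 22.2 CPM with vehicle.

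**Figure D3:**
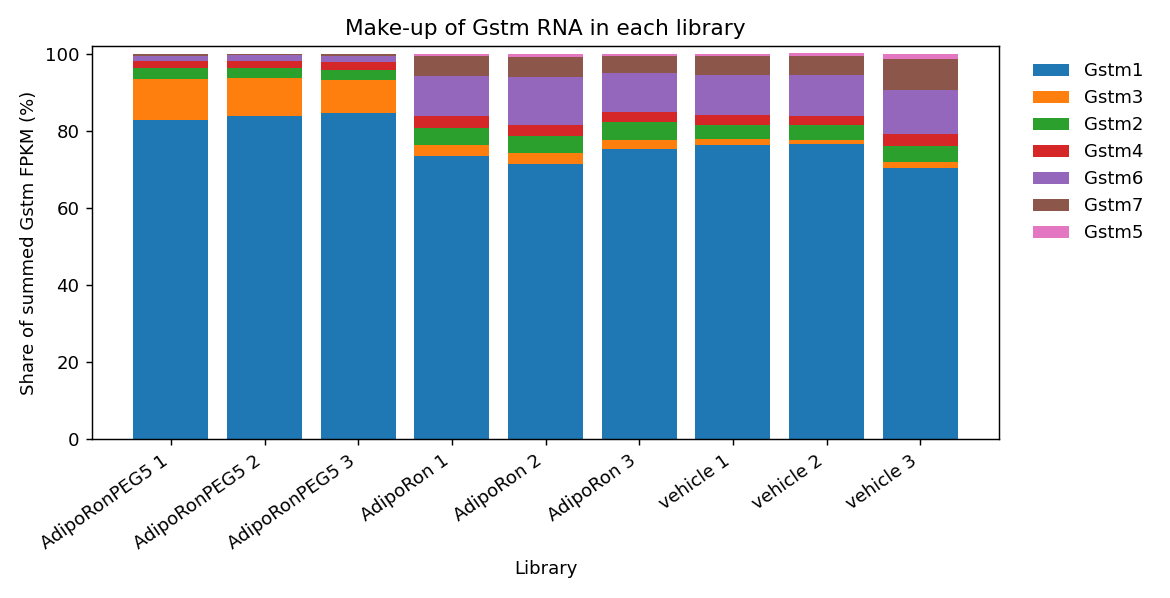
Share of each mu-class gene in the summed FPKM of the 7 genes, in percent, 1 bar per library. Gstm3 makes up 8.52% to 10.5% of the AdipoRonPEG5 bars against 1.18% to 1.61% of the vehicle bars, and Gstm6 1.4% to 1.61% against 10.4% to 11.5%.

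Libraries of a group also differed among themselves. Vehicle 3, the library with the highest Saa1, was the lowest of its group for Gstm1, Gstm2, Gstm3, Gstm4 and Gstm6 and the highest for Gstm5 and Gstm7. With vehicle 3 and AdipoRonPEG5 1 both left out, the log2 ratio of the summed FPKM was 3.28 for AdipoRonPEG5 against vehicle and 0.03 for AdipoRon against vehicle. The difference of Gstm3 between AdipoRonPEG5 and vehicle stayed within 5.98 to 6.29 under all 19 alternatives. AdipoRon 2 was the lowest of its group for every member but Gstm5.

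The 7 genes lie side by side on chromosome 3 in the order Gstm5, Gstm7, Gstm6, Gstm3, Gstm2, Gstm1 and Gstm4, with no other protein-coding gene among them in the annotation. Gstm5 runs on the plus strand and the other 6 on the minus strand. The 4 members with the largest differences, Gstm3, Gstm2, Gstm1 and Gstm4, were thus consecutive, and the 3 at the other end had differences of -0.35 to 0.52 from vehicle. Of the 10 protein-coding genes on each side, 13 of 20 were tested. With AdipoRonPEG5 against vehicle 1 of these rose, 1 fell and 11 did not pass, with log2 differences from -0.42 to 0.61. The gene that rose was Csf1, the macrophage growth factor M-CSF, by 0.61 ± 0.13 (edgeR adjusted p = 0.0107), and it lies next but one to Gstm5. With AdipoRon Csf1 rose by 0.68 ± 0.13 (adjusted p = 0.0185). Both calls can be lost when 1 library is left out: that with AdipoRonPEG5 without AdipoRonPEG5 2 (adjusted p = 0.0509), and that with AdipoRon without AdipoRon 2 or vehicle 2 (0.0683 and 0.0733). Ampd2, an AMP deaminase and the next gene after Gstm4, fell by 0.42 ± 0.12 with AdipoRonPEG5 (adjusted p = 0.0363), a call that ended under 6 of 19 alternatives (0.0543 to 0.113). Between the compounds 0 of the 13 passed in edgeR, DESeq2 and limma-voom, and 3 had an unadjusted p under 0.05.

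**Figure D4:**
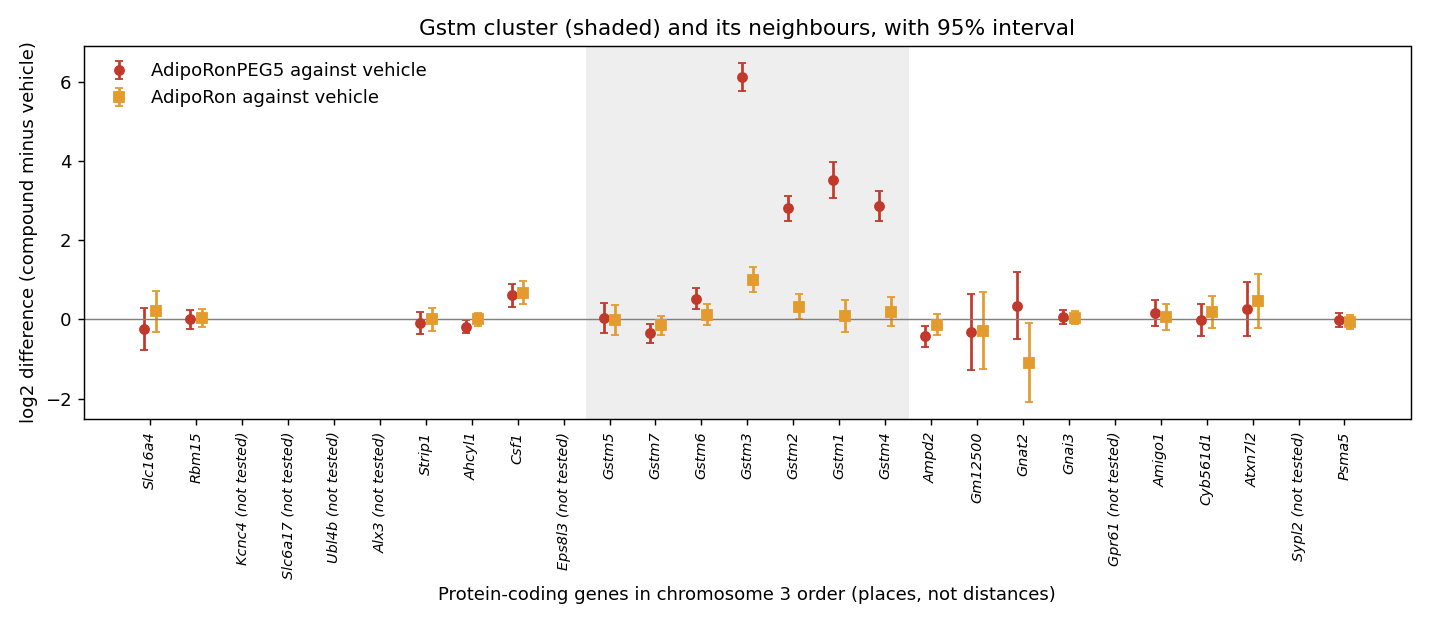
Log2 difference from vehicle of the mu-class genes (shaded) and of the 10 protein-coding genes on each side, in chromosome order, with 95% confidence intervals from the edgeR fit; places are ranks, not distances. The differences of the 13 tested neighbours with AdipoRonPEG5 run from -0.42 to 0.61, whereas Gstm3, Gstm2, Gstm1 and Gstm4 lie at 2.81 to 6.12.

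Among 16 other glutathione transferases tested, 7 rose, 2 fell and 7 did not pass with AdipoRonPEG5 against vehicle, with a median log2 difference of 0.55. Alpha-class Gsta1 was at 491 ± 49.0 CPM in AdipoRonPEG5 livers, 0.29 ± 0.17 CPM in AdipoRon livers and 0.28 ± 0.24 CPM in vehicle livers, both of these near the floor of 3 counts in a library (0.076 to 0.215 CPM; edgeR adjusted p = 7.77e-09 with AdipoRonPEG5 against vehicle). Pi-class Gstp2 rose by 4.05 ± 0.38 on the log2 scale (adjusted p = 0.000215), Gsta2 by 3.68 ± 0.39 (0.000367) and Gsta4, which acts on lipid aldehydes, by 1.66 ± 0.21 (0.000835). Of the 2 that fell, looked up after their values were seen, kappa-class Gstk1 fell by 0.71 ± 0.11 (adjusted p = 0.00242) and zeta-class Gstz1, an enzyme of tyrosine breakdown, by 0.37 ± 0.09 (0.014). Alpha-class genes are close copies of each other as well, and their reads may be shared. Gstp2 was at 18.5 ± 7.21 CPM in AdipoRonPEG5 livers and 1.14 ± 0.45 CPM in vehicle livers. Gstp1 of the same class, looked up after its values were seen, was at 2961 ± 462 and 1747 ± 960 CPM. It did not pass (adjusted p = 0.161), and sharing of reads between Gstp1 and Gstp2 was not examined. The call of Gstz1 ended under 3 alternatives, among them the omission of AdipoRonPEG5 2 or 3 (0.0513 to 0.055). With AdipoRon 1 of the 16 rose, Hpgds, a prostaglandin D synthase of the sigma class (1.55 ± 0.33, adjusted p = 0.0247). That call ended under 6 alternatives (0.0518 to 0.0902). Hpgds was also among the 7 that rose with AdipoRonPEG5, by 1.90 ± 0.32 (adjusted p = 0.00306). Between the compounds 6 of the 16 were higher with AdipoRonPEG5, 1 was lower and 9 did not pass.

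Genes that make and recycle glutathione moved in both directions. Of 20 tested, 5 rose, 4 fell and 11 did not pass with AdipoRonPEG5 against vehicle (median 0.06). Gpx2, a glutathione peroxidase best known from gut, had 38, 50 and 48 counts in AdipoRonPEG5 libraries, 0 in each AdipoRon library and 0, 0 and 1 in vehicle libraries (adjusted p = 0.00037 against vehicle). Oplah, which recovers glutamate from 5-oxoproline, rose by 0.63 ± 0.09 (adjusted p = 0.0013), the lipid peroxidase Gpx4 by 0.62 ± 0.08 (0.00118) and Esd, which hydrolyses S-formylglutathione, by 0.55 ± 0.10 (0.00452). The subunits of the rate-limiting enzyme of glutathione synthesis, looked up after their values were seen, did not pass: Gclc differed by 0.36 ± 0.17 (adjusted p = 0.172) and Gclm by 0.16 ± 0.07 (0.155). With AdipoRon 0 of the 20 passed in edgeR and limma-voom and 1 in DESeq2, and 6 had an unadjusted p under 0.05. Between the compounds 4 were higher with AdipoRonPEG5 and 16 did not pass.

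Of 13 genes of conjugate export and mercapturate formation, 5 rose, 1 fell and 7 did not pass with AdipoRonPEG5 against vehicle (median 0.46). The efflux pump Abcc4 rose by 3.04 ± 0.23 (adjusted p = 3.9e-05), the gamma-glutamyltransferase family member Ggt6 by 0.93 ± 0.12 (0.000814) and the efflux pump Abcg2 by 0.64 ± 0.11 (0.00301). Acy1, an aminoacylase, fell by 0.53 ± 0.08 (adjusted p = 0.00225). With AdipoRon 1 rose, the conjugate pump Abcc1 (1.34 ± 0.30, adjusted p = 0.0306), a call that ended under 9 alternatives (0.0534 to 0.104). Abcc1 rose with AdipoRonPEG5 as well, by 1.20 ± 0.30 (adjusted p = 0.0211), a call that ended under 4 alternatives (0.0511 to 0.0764). Between the compounds 3 were higher with AdipoRonPEG5 and 10 did not pass.

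Of 19 known NRF2 targets that are no transferases, 12 rose and 7 did not pass with AdipoRonPEG5 against vehicle (median 0.71). The list shares Abcc2, Abcc3 and Abcc4 with the export list and Gclc and Gclm with the glutathione list. Cbr3, a carbonyl reductase, rose by 3.89 ± 0.27 (adjusted p = 2.24e-05), its relative Cbr1 by 1.09 ± 0.13 (0.000591) and Osgin1, an oxidative stress response gene, by 2.15 ± 0.24 (0.000423). With AdipoRon 2 of the 19 rose, the haem oxygenase gene Hmox1 (1.17 ± 0.23, adjusted p = 0.018) and the pentose phosphate enzyme Pgd (0.48 ± 0.12, 0.0424). The call of Hmox1 ended without AdipoRon 1, vehicle 1 or vehicle 2 (0.0559 to 0.0593) and that of Pgd under 9 alternatives (0.0549 to 0.15). Between the compounds 7 of the 19 were higher with AdipoRonPEG5 and 12 did not pass.

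The transcription factors of detoxification did not move as one. Of 16 tested, 2 rose, 4 fell and 10 did not pass with AdipoRonPEG5 against vehicle (median -0.10). The NRF2 antagonist Bach1 rose by 0.50 ± 0.09 (adjusted p = 0.00503) and Arnt, the partner of the aryl hydrocarbon receptor, by 0.42 ± 0.09 (0.0106). Mafg, a small partner of NRF2 and Bach1, fell by 0.41 ± 0.08 (adjusted p = 0.00658). The aryl hydrocarbon receptor gene Ahr fell by 0.82 ± 0.22 (adjusted p = 0.026), and that call ended when any AdipoRonPEG5 library, vehicle 1 or vehicle 2 was left out (0.0551 to 0.0834). The mRNA of NRF2 and KEAP1, looked up after their values were seen, did not pass: Nfe2l2 differed by -0.17 ± 0.10 (adjusted p = 0.254) and Keap1 by 0.05 ± 0.07 (0.664). With AdipoRon, Bach1 and Arnt rose, by 0.45 ± 0.09 (adjusted p = 0.0227) and 0.41 ± 0.09 (0.0305), and both calls ended under some alternatives (5 and 9). Between the compounds Mafg was lower with AdipoRonPEG5, by -0.50 ± 0.08 on the log2 scale (adjusted p = 0.00834).

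Of 11 genes of the ASK1 kinase pathway, 1 rose, 1 fell and 9 did not pass with AdipoRonPEG5 against vehicle (median 0.04). Txn1, the thioredoxin that binds ASK1, rose by 0.70 ± 0.07 (adjusted p = 0.000281). Map2k7, an upstream kinase of JNK, fell by 0.28 ± 0.08 (adjusted p = 0.033), a call that ended under 10 alternatives (0.0506 to 0.147). Map3k5, which encodes ASK1, was at 52.8 ± 3.83 CPM in AdipoRonPEG5 livers, 75.5 ± 13.2 CPM in AdipoRon livers and 47.6 ± 5.02 CPM in vehicle livers. It rose with AdipoRon against vehicle by 0.67 ± 0.13 (adjusted p = 0.0142), which was lost without vehicle 1 (0.0559), while mitochondrial Txn2 fell by 0.28 ± 0.07 (0.0458), a call that ended under 14 alternatives (0.0508 to 0.159). Between the compounds 1 of the 11 was higher with AdipoRonPEG5 and 2 were lower.

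The genes with the most similar profiles were sought among 11114 genes by the root mean square difference of their log2 CPM over the 9 libraries, each centred on its own mean. This is a description of the pattern only, and the class members were not among the genes compared. Nearest to Gstm1 were Abcc12, an ABC transporter (0.35), Cbr3 (0.36) and Gsta2 (0.54). Within the class, Gstm4 lay at 0.37 and Gstm2 at 0.42 from Gstm1. Gstm2 and Gstm4 lay nearest to each other of all pairs of members (0.15), and outside the class Abcc4 was nearest to both (0.36 and 0.35), with Cbr3 next. For Gstm3 no gene was close on this scale. The nearest was the steroid hydroxylase gene Cyp2a4 at 1.0, itself a member of a family of close copies, and after it Gsta2 and Abcc12. The prior count of 2 used for log2 CPM narrows differences of genes at low levels. Cyp2a4 and Abcc12 were at 0.19 CPM each in vehicle livers. Their fitted differences of AdipoRonPEG5 from vehicle were 6.21 for Cyp2a4, against 6.12 for Gstm3, and 4.51 for Abcc12, against 3.52 for Gstm1. Gstm6 lay nearest to the pentose phosphate enzyme gene Tkt (0.06), which was itself higher with AdipoRonPEG5 than with vehicle by 0.52. Pla2g6 and Ugt1a6b came after it. Nearest to Gstm7 were Prps1 (0.06), Dnajb2 and Ift172, and nearest to Gstm5 were Tmem110 (0.04), Zfp874a and Hsdl1. Gstm5, Gstm6 and Gstm7 vary little over the libraries, and so do the genes nearest to them.

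In bulk liver, fewer cells of a type and less RNA per cell cannot be told apart. Hepatocyte markers took 76091 to 84569 CPM in AdipoRonPEG5 libraries, 70832 to 78747 CPM in AdipoRon libraries and 83982 to 93369 CPM in vehicle libraries, and 4 of 8 fell with AdipoRonPEG5. Of 10 periportal markers 6 fell, and of 10 pericentral markers 1 rose and 1 fell. Cps1, which fell, is in both the hepatocyte and the periportal list, and its call ended under 5 alternatives. The calls of Apoa1, Serpina1c, Sds and Arg1 ended under 3, 1, 3 and 7 alternatives, and those of Tat, Hal, Pck1 and Gls2 under none. Macrophage and Kupffer cell markers took 797.5 to 814 CPM with AdipoRonPEG5, 505 to 891 CPM with AdipoRon and 213 to 305 CPM with vehicle. Of 15 tested, 14 rose with AdipoRonPEG5 and 11 with AdipoRon, and 1 differed between the compounds. Of 7 lymphocyte markers 4 rose and 1 fell with AdipoRonPEG5 against vehicle. The call of Cd4, which fell, ended under 12 alternatives and that of Cd3e under 6, while those of Cd79a, Cd79b and Ccl5 ended under none. Lymphocyte markers summed to 7.58 to 9.995 CPM with AdipoRonPEG5, 5.95 to 8.64 CPM with AdipoRon and 3.51 to 4.54 CPM with vehicle. Of 12 stellate cell markers 2 rose, and of 10 endothelial markers 1 rose with AdipoRonPEG5 against vehicle, where 17.2% of all genes passed in either direction. The calls of the stellate cell markers Col1a2 and Ngfr ended under 2 alternatives each and that of endothelial Cdh5 under 5. Of 6 cholangiocyte markers 0 passed in edgeR, DESeq2 and limma-voom, and 1 had an unadjusted p under 0.05. Neutrophil markers, none of which passed the filter on low counts, summed to 1.17 to 4.26 CPM with AdipoRonPEG5, 0.80 to 1.17 CPM with AdipoRon and 0.37 to 1.19 CPM with vehicle. Of 3 adipocyte markers Cfd fell with AdipoRonPEG5 against vehicle (adjusted p = 0.0384), at a mean of 0.16 CPM in AdipoRonPEG5 livers, 2.98 CPM in AdipoRon livers and 2.73 CPM in vehicle livers. That call ended under 6 alternatives, among them the omission of any AdipoRonPEG5 library or of vehicle 1 (0.08 to 0.253). Of 2 gut markers Fabp2, an intestinal fatty acid binding protein, fell by 1.24 ± 0.15 (adjusted p = 0.000594). Cela1, the 1 exocrine pancreas marker tested, fell by 1.11 ± 0.15 (adjusted p = 0.00109), and pancreas markers summed to 16.2 to 17.1 CPM with AdipoRonPEG5, 21.3 to 32.0 CPM with AdipoRon and 30.7 to 40.8 CPM with vehicle. Lep of the adipocyte list, Ly6g of neutrophils, Slc12a1 of kidney and Prss1, Amy2a5, Cpa1 and Pnlip of exocrine pancreas had no count in any library. The part of these marker shifts in the differences of the mu-class genes was not tested.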

How the data were processed

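Liver RNA-seq of 9 libraries in 3 groups was analysed from 1 table. The authors deposited raw read counts per gene and FPKM beside them. The FPKM follow from the counts, the library totals and 1 gene length each, which came out whole within 0.01 for 99.995% of nonzero values, and the length of each of the 7 members is that of its longest GENCODE M21 transcript. STAR 2.5, TopHat, HTSeq 0.6.1, DESeq2 and edgeR are listed without roles, per the submitters' processing notes. The genome build, strand setting and read filters are not given in the sources used here. Of the entries, 21500 had a count and 126 share a name with another. The columns of AdipoRonPEG5 carry another prefix, which the sample descriptions explain.

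Counts entered 1 quasi-likelihood fit with 3 group means in edgeR 4.0.16 under R 4.3.3 (TMM, filterByExpr, robust FALSE, no replicate block), with Benjamini-Hochberg adjustment over 13151 genes at 0.05. CPM are TMM-scaled, and log-CPM used a prior count of 2. Means of FPKM and CPM are given ± SD over 3 libraries. Log2 differences are given ± SE, and the 95% intervals are those of the fitted differences. The alternatives took scaling by RLE or by total counts, a filter at a mean of 1 CPM or none, DESeq2 1.42.0, voom of limma 3.58.1, only the 2 groups compared, a replicate block, each library left out, vehicle 3 with AdipoRonPEG5 1 left out, and vehicle 1 thinned to 15795229 counts. The fit was tested on simulated data. No library pair held identical values.

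The members and gene lists were chosen with earlier results of these data known. Genes named are all members, the 3 nearest profiles of each (mean of at least 1 CPM), and up to 4 called genes of each list by lowest p in each comparison, of which those between the compounds are mostly given as counts; exceptions are marked. Promoter windows and motif shares come from RefSeq (GRCm38.p6), coding sequences from GENCODE M21.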

Additional observations from a re-analysis of the deposited data

How the results depend on the processing

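Under 19 alternatives all log2 differences of the 7 members kept their direction where the groups did not overlap. Leaving out libraries in turn gave 3.33 to 3.66 for Gstm1, 6.03 to 6.29 for Gstm3, 0.40 to 0.61 for Gstm6 and -0.41 to -0.29 for Gstm7 with AdipoRonPEG5 against vehicle, and 0.89 to 1.17 for Gstm3 with AdipoRon against vehicle. The summed FPKM ratios stayed within 3.26 to 3.58, 0.03 to 0.35 and 3.10 to 3.32 when libraries were left out. Counts over all genes moved more. Leaving out libraries gave 1337 to 2334 called genes for AdipoRonPEG5 against vehicle (2260 with all), 250 to 624 for AdipoRon against vehicle (684) and 233 to 1032 for AdipoRonPEG5 against AdipoRon (709). With only the groups compared in the fit, AdipoRon against vehicle gave 325. The replicate block gave 1763, 444 and 338 for the 3 comparisons. Deviations of same-numbered libraries from their group means correlated at -0.27 to 0.08, and those of other pairs at -0.30 to 0.32. With 3 libraries a group these values cannot decide whether the numbers pair samples, and the labels state no pairing. Of the genes of the 6 pathway lists and the neighbours of the cluster, 31 of 45 called with AdipoRonPEG5 against vehicle, 0 of 9 with AdipoRon against vehicle and 16 of 25 between the compounds were called under every alternative that tested them. Of the cell type markers, the counts were 24 of 36, 8 of 13 and 3 of 9. With vehicle 3 and AdipoRonPEG5 1 both left out, AdipoRonPEG5 against vehicle called 11 of the 16 other transferases, 7 of 20 glutathione genes, 5 of 13 export genes, 5 of 16 transcription factors, 12 of 19 NRF2 targets and 1 of 11 ASK1 pathway genes. The causes were not tested.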
